A study of Mus musculus with 12 samples.

Results

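Gastric organoids from the antrum and from the corpus of the mouse stomach were both switched from Wnt-rich medium to Wnt inhibition, and the quantity described here is how far the 2 responses differed: the log2 change by inhibition in antrum minus that in corpus, gene by gene. All 12 libraries of the 12 in the series enter it, and 16152 of 55421 gene rows had enough counts to be tested. The organoids were wild-type, 3 lines per region (numbered 8025, 8026 and 8028), each line giving a vehicle and an inhibited library, so each of the 4 groups (corpus vehicle, corpus inhibited, antrum vehicle, antrum inhibited) holds 3 libraries. The 24 h treatment started 4 days after passage. Inhibited organoids were kept without added Wnt and R-spondin, with XAV939, a tankyrase inhibitor that stabilises the complex degrading beta-catenin (1 mM as labelled), and with Noggin (100 ng/mL), which blocks bone morphogenetic proteins. Vehicle organoids received DMSO and stayed in their normal medium, 50% of which was conditioned by L-WRN cells. L-WRN cells secrete Wnt3a, Noggin and R-spondin. The effects of XAV939 and of the withdrawal cannot be told apart. Serum made up 20% of the normal corpus medium and 10% of the antral one, and it cannot be told apart from region. Organoids are grown from epithelium, and nothing in the labels says whether one number in both regions marks one mouse.

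Canonical Wnt signalling keeps beta-catenin stable, lets it act with TCF/LEF factors in the nucleus, and sustains the stem and progenitor cells of gastric glands. Its loss lets gland cells leave the cycle and move towards the mucous cells of the pit. The antrum carries Lgr5-positive stem cells at the gland base and is marked by the homeobox factors Pdx1 and Nkx6-3, while the corpus is the acid- and pepsinogen-secreting body of the organ. Glutathione S-transferases, UDP-glucuronosyltransferases, aldo-keto reductases and carboxylesterases are enzymes that modify and clear reactive or foreign molecules, many of them under the aryl hydrocarbon receptor or the stress factor NRF2.

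The libraries held 18858022 to 31656696 counts. CPM below are counts as a rate per library total after TMM scaling (edgeR's cpm), and values per line are given in the order 8025, 8026, 8028. Epithelial markers were high in all 12 (Epcam 322 to 583 CPM, Krt8 2561 to 7158). Defining markers of fibroblasts, leukocytes, endothelium and parietal cells were low. Their highest values were 1.06 CPM for Col1a1, 0.125 for Col1a2, 0.860 for Ptprc and for Pecam1, and 0.288 for Cdh5. The parietal pump genes Atp4a and Atp4b reached 1.56 and 0.0376 CPM. The summed fibroblast list was at most 1.83 CPM, and the summed leukocyte list 11.1 to 52.6 CPM, mainly Cd68 (mean 27.4). The summed parietal list held 1269 to 2852 CPM, with Car2 (mean 701) and Slc9a4 (mean 283) among its members. Counts in rRNA-like genes took 17.5% of antral vehicle line 8025 and 6.99% of antral vehicle line 8028, against 0.874% to 3.51% elsewhere. The line labelled corpus 8028 went against its label in some regional genes. Nkx6-3 stood at 48.7 CPM in its vehicle library and 82.5 in its inhibited one, beside 0.247 to 3.08 in the other corpus lines and 61.5 to 119 in antrum. Of 4 genes at 5 CPM or more that parted the 3 antral vehicle libraries from corpus lines 8025 and 8026 by over 4-fold (Nkx6-3, Gm15816, Mgam2-ps and Bpifb1), line 8028 lay nearer the antral mean in all 4. At 2-fold it did so for 8 of 9 genes higher in antrum and for 5 of 11 higher in corpus. Irx5 stood at 2.13 and 2.56 CPM in this line, beside 10.7 to 13.7 in the other corpus lines and 0 to 0.125 in antrum. Counts of the gene lists that this line changes are therefore given with all 12 libraries and without its 2 libraries.

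With all lines, 7 genes differed between the regional responses at an adjusted p below 0.05 (edgeR quasi-likelihood test, Benjamini-Hochberg), all with the higher change in antrum: Akr1c14, Gstm3, Gstm2, Adh1, Gstm1, Pdcd4 and Atp2a3. This is 0.0433% of the genes tested, and 0% passed with the lower change in antrum, where 469 genes had an unadjusted p below 0.05 and DESeq2 called 10 and limma-voom 0. At an unadjusted p below 0.05, 685 genes (4.24%) had the higher change in antrum and those 469 (2.90%) the lower. The 3 antral line changes all lay above the 3 corpus ones for 1301 genes (8.05%) and all below for 755 (4.67%). In such bulk samples fewer cells of a type and less RNA per cell cannot be told apart. Each response on its own was broad. Inhibition changed 7022 genes (43.5%) in corpus (3201 up, 3821 down) and 6594 (40.8%) in antrum (3333 up, 3261 down). Of these, 5289 moved the same way in both and 9 moved opposite ways. A further 1724 genes passed in corpus alone and 1296 in antrum alone, yet 1 gene that passed in one region alone also passed the test of the difference (Adh1).

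**Figure D1:**
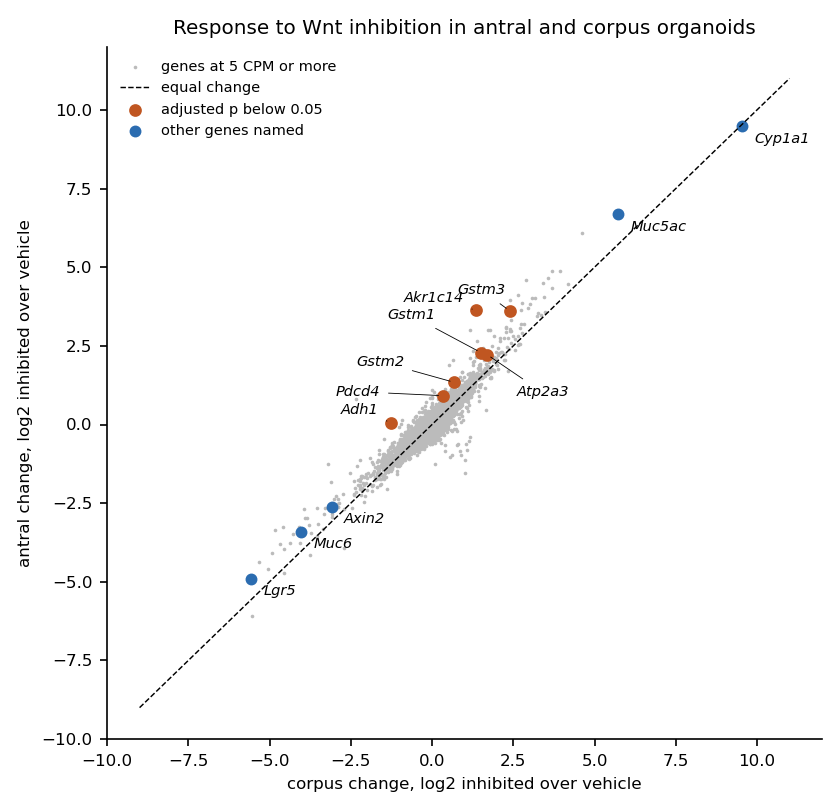
Log2 change by Wnt inhibition in antral organoids (vertical) against corpus organoids (horizontal) for the 11031 genes with a mean of at least 5 CPM. Each point is 1 gene and the dashed line marks equal change. The 7 genes whose responses differed (orange) all lie above the line, from Adh1 at -1.27 in corpus and 0.06 in antrum to Gstm3 at 2.39 and 3.62, while other genes named below (blue) include Lgr5 at -5.56 and -4.90 and Cyp1a1 at 9.54 and 9.48.

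The precision bounds what could go unseen. Among the 11031 genes at 5 CPM or more, the 95% interval of the difference lay wholly between -1 and 1 on the log2 scale for 96.7%, and its median half-width was 0.25. The median difference over all genes tested was 0.03 (0.12 under total-count scaling).

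Akr1c14, a hydroxysteroid dehydrogenase of the aldo-keto reductase family (ENSMUSG00000033715, chromosome 13, 4049011 to 4090688 on GRCm38, protein-coding), showed the largest difference among the genes that passed. Its vehicle libraries held 10.0, 13.97 and 10.3 CPM in corpus and 2.01, 2.93 and 2.88 in antrum. After inhibition corpus lines reached 28.7, 28.4 and 30.1 CPM and antral lines 28.0, 36.4 and 32.8. The antral lines began below all corpus lines, and the inhibited groups overlapped. The corpus change was 1.36 and the antral change 3.63 on the log2 scale, a difference of 2.27 (SE 0.17, 95% interval 1.88 to 2.66, adjusted p = 0.00190), or 4.83-fold. Without the line labelled corpus 8028 the difference was 2.36 (adjusted p = 0.000531).

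The mu-class glutathione S-transferases, which conjugate glutathione to electrophiles, held 3 of the 7 genes. Gstm1, Gstm2 and Gstm3 lie beside each other on the minus strand of chromosome 3 (GRCm38: Gstm3 ENSMUSG00000004038 at 107963696 to 107969283, Gstm2 ENSMUSG00000040562 at 107981702 to 107986453, Gstm1 ENSMUSG00000058135 at 108012255 to 108017973). The 250 bases before a RefSeq start site of each gene (GRCm38.p6, minus strand, printed 5′ to 3′) are shown because these neighbours moved together. Gstm1 has a further RefSeq start site downstream, whose window is not shown and was not compared. Capitals mark runs of at least 10 bases found in the same orientation in another of the 3 windows.
Gstm1 (chr3:108017974-108018223): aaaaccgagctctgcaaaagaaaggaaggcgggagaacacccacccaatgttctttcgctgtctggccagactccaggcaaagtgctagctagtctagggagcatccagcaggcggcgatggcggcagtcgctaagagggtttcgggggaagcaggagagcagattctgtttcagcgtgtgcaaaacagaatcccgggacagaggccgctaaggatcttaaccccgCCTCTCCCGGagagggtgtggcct
Gstm2 (chr3:107986421-107986670): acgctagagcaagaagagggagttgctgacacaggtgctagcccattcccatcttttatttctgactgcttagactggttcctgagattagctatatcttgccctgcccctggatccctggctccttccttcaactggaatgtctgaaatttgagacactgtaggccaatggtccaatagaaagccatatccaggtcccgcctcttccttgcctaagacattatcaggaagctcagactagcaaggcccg
Gstm3 (chr3:107969175-107969424): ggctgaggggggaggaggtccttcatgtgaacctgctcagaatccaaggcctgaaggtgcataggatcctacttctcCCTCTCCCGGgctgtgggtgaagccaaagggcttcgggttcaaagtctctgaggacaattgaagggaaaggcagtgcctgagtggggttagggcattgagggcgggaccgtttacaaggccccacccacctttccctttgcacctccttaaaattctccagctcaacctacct
Gstm1 and Gstm3 shared 1 such run of 10 bases and Gstm2 shared none with either. For Gstm1 the RefSeq start used matches the end of the annotated gene above. For Gstm2 and Gstm3 it lies inside the annotated gene, so part of their printed sequence does too. In transcripts, 28.8% of the 50-base words of Gstm3 and 18.9% of those of Gstm1 also occur in transcripts of other genes. For both, those genes include the other of the pair, Gm8834 and Gstm2-ps1. The shares are 5.65% for Gstm2 and 5.80% for Akr1c14 (shared with the annotated locus Gm18857). How the authors' counting split such reads cannot be seen in the table, so the separate values of Gstm1 and Gstm3 are uncertain to that extent. In the 300-base RefSeq windows of the 7 genes (250 bases before to 50 after the start, 9 windows) none of 4 motifs was found on either strand: the TCF/LEF core CTTTGAT (in 3.73% of all 32851 windows), the xenobiotic response core TTGCGTG (1.16%), the direct repeat of the retinoic acid response element with a spacer of 5 bases (0.00913%) and the antioxidant response core TGACNNNGC (12.4%, a motif chosen after the values were seen). Of the 8 genes with the smallest p on the lower side, 3 windows were on hand and 1 held the antioxidant core.

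Gstm3 stood at 51.7, 49.6 and 40.1 CPM in corpus vehicle libraries and at 21.6, 16.2 and 27.3 in antral ones. Inhibition brought it to 239, 262 and 236 CPM in corpus and to 267, 209 and 317 in antrum. As for Akr1c14, the vehicle groups did not overlap and the inhibited groups did. The changes were 2.39 in corpus and 3.62 in antrum, differing by 1.23 (SE 0.10, adjusted p = 0.00190; 0.000248 without the line labelled corpus 8028).

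Gstm1 vehicle libraries held 427, 423 and 379.6 CPM in corpus and 241, 199.9 and 277 in antrum. After inhibition they held 1240.3, 1302 and 967 CPM in corpus and 1155, 1072 and 1253 in antrum. Again only the vehicle groups were apart. Its difference was 0.78 (SE 0.10, adjusted p = 0.0454). Gstm2 went from 108, 113 and 88.9 CPM to 176, 181 and 140.1 in corpus, and from 68.1, 60.7 and 84.3 to 164, 171 and 202 in antrum. Its difference was 0.66 (SE 0.08, adjusted p = 0.0454), and all 3 antral line changes lay above the corpus ones (0.66 to 0.70). Of the 4 other mu-class genes tested none passed: Gstm6 differed by 0.88 (adjusted p = 0.397), Gstm7 by 0.37 (0.666), Gstm5 by 0.15 (0.905) and Gstm4 by -0.10 (0.947). With all 8 Gstm rows of the table summed to 1, a step chosen after seeing the data, the difference was 0.73 (SE 0.09, adjusted p = 0.0783).

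Adh1, an alcohol dehydrogenase that oxidises ethanol and retinol (ENSMUSG00000074207, chromosome 3, 138260991 to 138290698), was the gene among the 7 that fell in one region. Corpus lines went from 75.9, 64.9 and 41.8 CPM to 25.3, 26.8 and 21.8. Antral lines went from 42.8, 30.3 and 59.9 CPM to 47.9, 33.6 and 55.2. The vehicle groups overlapped and the inhibited groups did not. The corpus change was -1.27 (adjusted p = 3.15e-05) and the antral change 0.06 (adjusted p = 0.692), a difference of 1.33 (SE 0.16, adjusted p = 0.0454).

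Pdcd4, an inhibitor of translation initiation that binds eIF4A (ENSMUSG00000024975, chromosome 19, 53892231 to 53929860), rose in both regions. It went from 72.2, 69.2 and 52.3 CPM to 93.7, 86.1 and 63.7 in corpus. In antrum it went from 42.9, 32.6 and 49.6 CPM to 85.1, 60.3 and 90.8. Antral vehicle levels lay below every corpus vehicle level, and the inhibited levels overlapped. The difference was 0.59 (SE 0.08, adjusted p = 0.0454).

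Atp2a3, which encodes the calcium pump SERCA3 of the endoplasmic reticulum (ENSMUSG00000020788, chromosome 11, 72961169 to 72993044), began at like levels in both regions. Corpus vehicle libraries held 55.6, 59.2 and 60.5 CPM and antral ones 53.1, 60.7 and 65.3. Inhibition brought corpus lines to 179, 195 and 195 CPM and antral lines to 244, 277 and 314. The inhibited groups were apart, with antrum higher, and the difference was 0.52 (SE 0.07, adjusted p = 0.0454). The widely expressed pump gene Atp2a2 differed by -0.11 (adjusted p = 0.809).

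The 7 genes thus showed more than one form of difference. In 5 of them (Akr1c14, Gstm1, Gstm2, Gstm3 and Pdcd4) the vehicle levels were apart, with antrum lower, and the inhibited levels overlapped. In Adh1 and Atp2a3 it was the inhibited levels that were apart. All 7 also passed without the line labelled corpus 8028, and kept their sign in 17 of 17 alternatives of the processing. Leaving out any of the other 5 lines left Akr1c14 (2.10 to 2.35 in those fits) and Gstm3 (1.14 to 1.27) called and, without corpus line 8025, also Adh1 (1.17, adjusted p = 0.0277). Gstm1, Gstm2, Pdcd4 and Atp2a3 lost the call without any one of those 5 lines, with adjusted p up to 0.439. Without antral lines 8025 and 8028, in which rRNA-like counts were high, none of the 7 passed (adjusted p 0.102 to 0.621), with differences from 0.49 for Atp2a3 to 2.27 for Akr1c14.

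**Figure D2:**
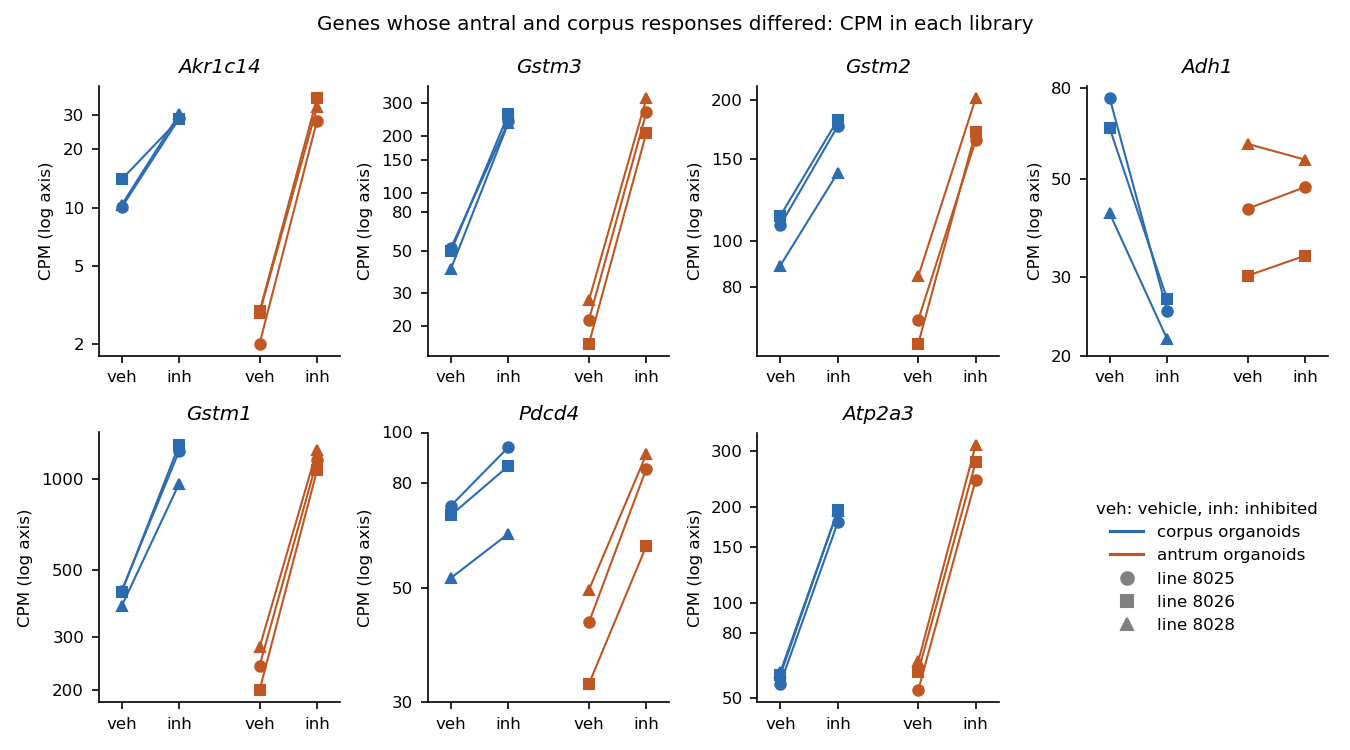
CPM (log axis) of the 7 genes whose responses differed, in vehicle (veh) and inhibited (inh) libraries; a line joins the 2 libraries of one organoid line, corpus in blue and antrum in orange, with a symbol per line number. The antral lines start lower and climb more steeply for Akr1c14 and the 3 Gstm genes, while Adh1 falls in corpus (75.9 to 25.3 CPM in line 8025) and goes from 42.8 to 47.9 CPM in antral line 8025.

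The genes next in p did not pass. On the higher side the first were Slc12a7, a potassium-chloride cotransporter, at 0.66 (adjusted p = 0.0521) and Ugt1a6a, a UDP-glucuronosyltransferase for phenols, at 0.80 (0.0527). Ugt1a6a went from 57.6, 57.7 and 66.5 CPM to 306, 299 and 278 in corpus and from 35.5, 39.8 and 44.7 to 334, 309 and 372 in antrum, without overlap of the vehicle or of the inhibited groups. Of its transcripts' 50-base words, 52.1% occur in other genes, mainly the neighbouring Ugt1a genes that share exons. On the lower side the smallest adjusted p was 0.0884, for Basp1, a membrane-bound signalling protein, at -0.51. Its corpus lines went from 257, 207 and 149 CPM to 328, 274 and 170.3 and its antral lines from 238, 169 and 156 to 218, 147 and 132, so that every corpus line went up and every antral line down. Epop, a protein tied to Polycomb complexes, followed at -0.52 (adjusted p = 0.172), with Gm5513, Gm8172, Gm5905, Rpsa-ps2, Hnrnpa0 and Wtip between -0.36 and -0.71 (adjusted p 0.274 to 0.318).

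Enzymes that act on foreign compounds lay mostly on the higher side, though outside the genes above none of them passed. The families were drawn up by gene name after values had been seen, so their counts describe and do not test. All 6 UDP-glucuronosyltransferases tested had differences above 0 (median 0.79), as did 9 of 10 carboxylesterases (median 0.97), 5 of 5 carbonyl reductases (0.50), 4 of 5 sulfotransferases (0.76) and 20 of 24 cytochromes P450 of families 1 to 4 (0.27). Over all genes tested, 9447 of 16152 lay above 0, with the median at 0.03. Unadjusted p lay below 0.05, with the higher change in antrum, for 3 of 6 glucuronosyltransferases, 4 of 10 carboxylesterases, 4 of 5 carbonyl reductases, 4 of 5 sulfotransferases and 5 of 24 cytochromes, where the background is 4.24%. Among single members, Cbr2, a carbonyl reductase, differed by 1.27 (adjusted p = 0.0756), Cyp2c65 by 1.47 (0.397), Cyp2c55 by 1.70 (0.297), the sulfotransferase Sult1c2 by 0.78 (0.474) and Ces2g by 0.52 (0.193). Aldh3a1, an aldehyde dehydrogenase, went from 161, 132 and 146 CPM to 942, 822 and 637 in corpus and from 58.2, 55.9 and 84.3 to 599, 670.3 and 691 in antrum, a difference of 0.88 (adjusted p = 0.296). All 3 alcohol dehydrogenases lay above 0 (median 0.60), as did 13 of 14 cytosolic glutathione S-transferases outside the mu class (0.29) and 3 of 3 microsomal ones (0.25). Aldehyde dehydrogenases had 12 of 18 above 0 (median 0.07), and aldo-keto reductases 8 of 11 (0.11). These last families had, without the line labelled corpus 8028, 8 of 18 and 4 of 11 above 0, each with a median of -0.01. The medians of the carboxylesterases (0.91), glucuronosyltransferases (0.67), sulfotransferases (0.56), carbonyl reductases (0.41) and cytochromes (0.39) stayed above 0 there, with 2, 1, 0, 1 and 1 genes called. All of these calls were on the higher side, where that fit called 0.762% of all genes tested. With the 8 Akr1c rows summed the difference was 0.19 (adjusted p = 0.807), and Akr1c12 and Akr1c13, which share 28.6% and 24.2% of their 50-base words with each other, differed by 0.13 and 0.08.

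**Figure D3:**
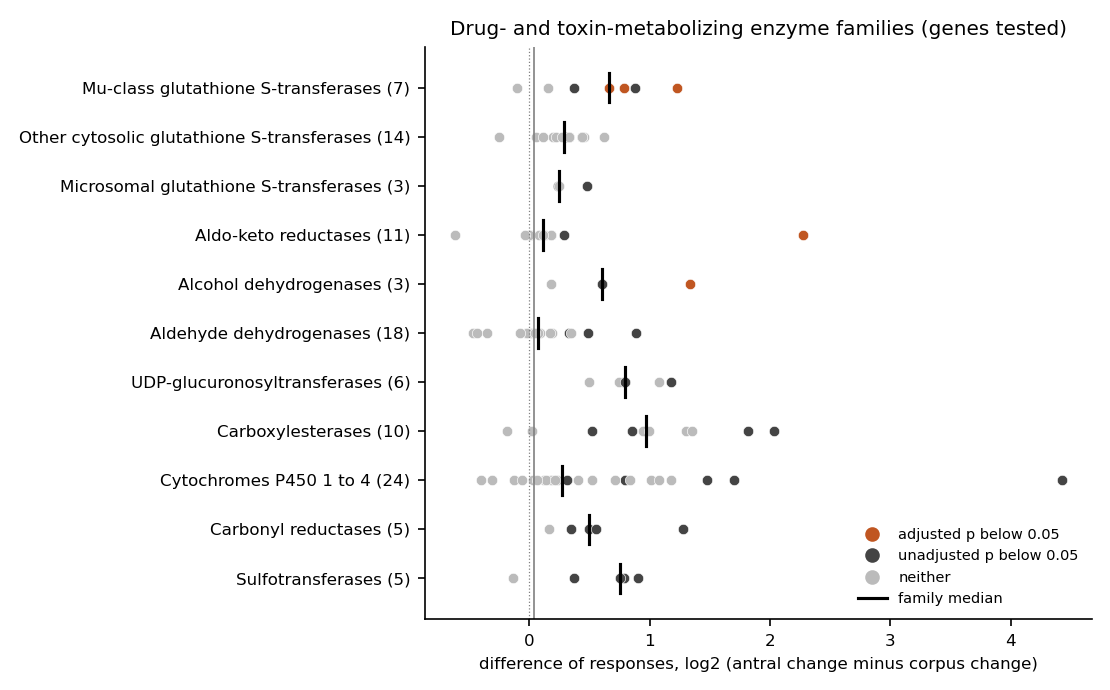
Difference of responses (log2, antral change minus corpus change) for each tested member of 11 enzyme families, one point per gene, with the number of genes tested in brackets and the family median as a black bar; the solid grey line is the median of all genes tested (0.03). Orange points passed at an adjusted p below 0.05 (3 mu-class transferases, Akr1c14 and Adh1), and the carboxylesterase, glucuronosyltransferase and sulfotransferase medians lie between 0.76 and 0.97.

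Of 10 targets of the aryl hydrocarbon receptor 8 rose in corpus and 8 in antrum, and 0 of 10 passed the test of the difference. At an unadjusted p below 0.05 there were 4 on the higher side (background 4.24%), and limma-voom called 0 and DESeq2 2. Their median difference was 0.29. Of the 10, 2 passed without the line labelled corpus 8028, Ugt1a6a (0.68, adjusted p = 0.00884) and the receptor's repressor Ahrr (1.13, 0.0176), 6 had an unadjusted p below 0.05, and the median was 0.42. In that fit the shares of all genes tested on the higher side were 0.762% adjusted and 9.36% unadjusted. Cyp1a1, the classical target, was at 0 to 0.125 CPM in all vehicle libraries and reached 20.9, 35.6 and 50.8 CPM in corpus and 32.8, 50.2 and 42.6 in antrum. These ranges overlapped, and the fitted difference was -0.06 (95% interval -2.37 to 2.24). Nqo1, a quinone reductase under both this receptor and NRF2, differed by 0.41 (adjusted p = 0.711). Of 18 NRF2 genes, 1 passed (Gstm1) and 4 had an unadjusted p below 0.05 on the higher side, Gstm1, the carbonyl reductases Cbr1 and Cbr3 (0.56 and 0.50, adjusted p = 0.666 for both) and the glutathione S-transferase Gsta4 (0.33). Among those that did not, the cystine transporter Slc7a11 differed by -0.14 and Gclm, a subunit of the enzyme that makes glutathione precursors, by -0.03. The NRF2 median was 0.18 with all lines, -0.06 without the line labelled corpus 8028 and -0.05 without antral line 8026.

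Of 22 Wnt target genes 19 fell in corpus and 17 in antrum. None of the 22 passed the test of the difference with all lines, either adjusted or at an unadjusted p below 0.05 (0 also by DESeq2 and limma-voom). Lgr5, the stem cell receptor for R-spondins, went from 51.1, 51.1 and 42.4 CPM to 0.206, 1.03 and 1.77 in corpus and from 46.3, 40.0 and 48.8 to 1.83, 1.42 and 1.25 in antrum. Axin2, a feedback inhibitor of the pathway, went from 70.7, 64.2 and 71.4 CPM to 3.71, 5.39 and 18.7 in corpus and from 70.1, 79.0 and 77.4 to 11.5, 14.3 and 11.3 in antrum. In Axin2 the corpus lines 8025 and 8026 ended below every antral line and line 8028 ended above every one. Its differences were 0.48 with all lines (SE 0.62, adjusted p = 0.926) and 1.28 without the line labelled corpus 8028 (SE 0.18, adjusted p = 0.0149).

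The count of genes that differed depended on that line. Without it 174 genes differed at an adjusted p below 0.05, 123 (0.762%) with the higher change in antrum and 51 (0.316%) with the lower, and 1512 (9.36%) and 731 (4.53%) did so at an unadjusted p below 0.05. The fit then sets 3 antral against 2 corpus lines. All 7 genes above were among the 174. So were 7 of 22 Wnt targets, all falling less in antrum: Smoc2 by 1.91 (adjusted p = 0.0214), Ascl2, a stem cell transcription factor (adjusted p = 0.0149), Axin2 by 1.28, Cd44 by 0.91 (0.000936), Sox9 by 0.88 (0.0460), Tcf7 by 0.86 (0.0262) and Rnf43, which removes Wnt receptors from the surface, by 0.51 (0.0380). Lgr5 differed by 1.48 there and did not pass (adjusted p = 0.260). The Wnt target median went from 0.20 with all lines to 0.52, and it was 0.061 without corpus line 8025. Of 17 stem and progenitor genes, with which that list overlaps, 0 passed with all lines (2 at an unadjusted p below 0.05, background 4.24%, and 2 by DESeq2) and 6 without the line, with medians of 0.22 and 0.47. Without corpus line 8025 their median was 0.060, with 10 of 17 above 0. Per line, Ascl2, Sox9, Tcf7 and Cd44 fell by less in the line labelled corpus 8028 than in any antral line. They were picked from genes that passed only without that line, so this order is not independent of the choice. Region of origin and this one line cannot be told apart in those counts, since some of its regional genes went against its label.

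**Figure D4:**
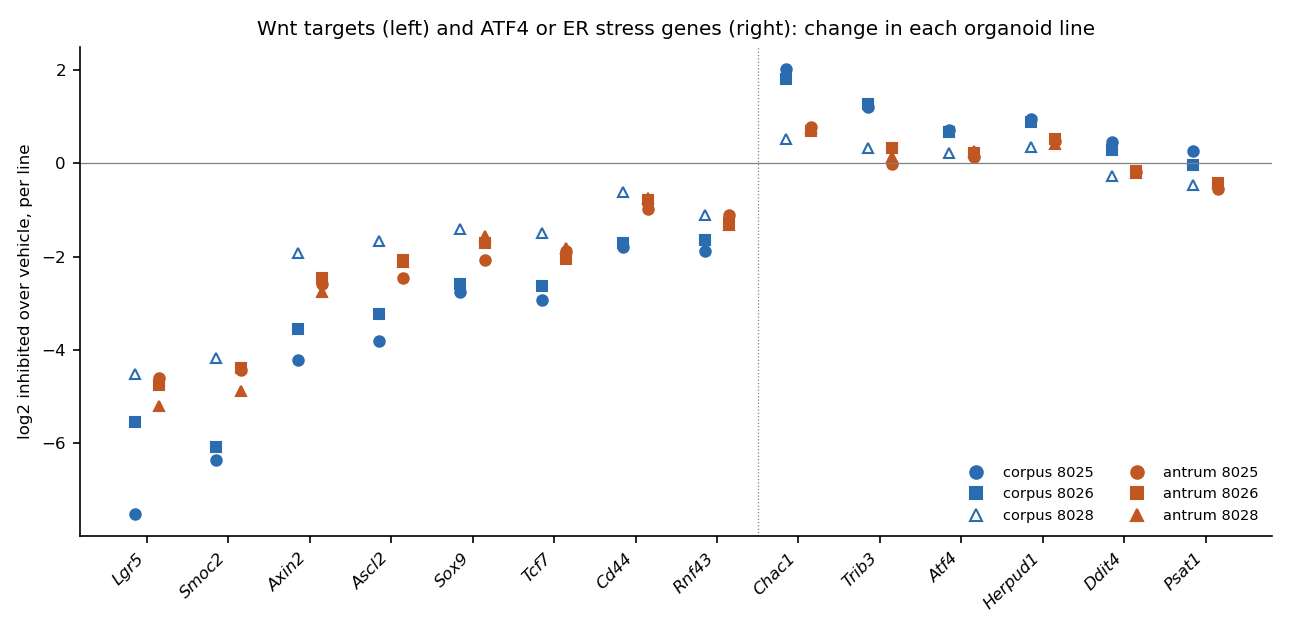
Log2 change by inhibition in each organoid line for 8 Wnt targets (left of the dotted line) and 6 genes of endoplasmic reticulum or ATF4 stress (right), corpus in blue and antrum in orange, with a symbol per line number. The line labelled corpus 8028 (open triangles) lies apart from the other 2 corpus lines and near or beyond the antral lines: its Axin2 change was -1.93, against -4.23 and -3.55 in corpus and -2.76 to -2.46 in antrum. All genes drawn but Lgr5 passed only in the fit without this line. Such a choice favours genes in which it lies apart, so its place here is not independent of the choice.

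All 32 proliferation genes tested had differences above 0 with all lines (median 0.18), 0 of them passed (0 also by DESeq2 and limma-voom), and 0 had an unadjusted p below 0.05. These genes drive DNA replication and mitosis. Without the line labelled corpus 8028 the median was 0.45, 29 of 32 had an unadjusted p below 0.05 and 7 passed, among them Birc5, an inhibitor of apoptosis active in mitosis (0.66, adjusted p = 0.0236), and the replication helicase subunit Mcm6 (0.58, 0.0353). In that fit the shares of all genes tested on the higher side were 9.36% unadjusted and 0.762% adjusted. Without corpus line 8025, on the other hand, the median was -0.05 and 8 of 32 lay above 0. Mki67, a marker of cycling cells, had changes of -0.71 in corpus and -0.49 in antrum with all lines, a difference of 0.22 (adjusted p = 0.897).

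Genes of endoplasmic reticulum and ATF4 stress lay on the lower side. With all lines 16 of 17 had a difference below 0 and 7 of 17 an unadjusted p below 0.05 (background 2.90%), and 0 passed (1 by DESeq2, 0 by limma-voom). Their median difference was -0.26. The count at an unadjusted p below 0.05 was 2 without corpus line 8025, without corpus line 8026 or under total-count scaling, and was 3 to 5 without an antral line, with medians of -0.27 to -0.17. Sdf2l1, a chaperone cofactor of the endoplasmic reticulum, had changes of 0.23, 0.16 and 0.18 in corpus lines and of -0.14, -0.08 and -0.15 in antral ones, a difference of -0.32 (adjusted p = 0.322). Manf, a secreted stress protein, had changes of 0.32, 0.33 and 0.21 in corpus and of 0.05, 0.03 and -0.01 in antrum, a difference of -0.27 (adjusted p = 0.474). In neither gene did the groups of line changes overlap. Without the line labelled corpus 8028, 6 of the 17 passed, all on the lower side: Chac1, which degrades glutathione, at -1.18 (adjusted p = 0.000558), the pseudokinase Trib3 at -1.10 (0.000936), Psat1, an enzyme of serine synthesis, at -0.58 (0.0229), Ddit4 at -0.56 (0.0125), Atf4 itself at -0.49 (0.0154) and Herpud1 at -0.46 (0.0164). That fit called 0.316% of all genes tested on the lower side. The Chac1 change was 2.02 and 1.81 in corpus lines 8025 and 8026, 0.52 in the line labelled corpus 8028 and 0.70 to 0.77 in antrum.

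Cholesterol synthesis genes also lay below 0, in 21 of 24 members with all lines (median -0.10). None passed (0 also by DESeq2 and limma-voom), and 2 had an unadjusted p below 0.05 (background 2.90%), among them Fdps of the mevalonate pathway (-0.25, adjusted p = 0.683). Under total-count scaling 10 of 24 lay above 0, so this sign is not independent of the scaling. Without corpus line 8025, 11 of 24 lay above 0, the median was -0.02 and 0 had an unadjusted p below 0.05. Without the line labelled corpus 8028, Lss, the cyclase that forms lanosterol, passed at -0.57 (adjusted p = 0.0149). That fit called 0.316% of all genes tested on the lower side.

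**Figure D5:**
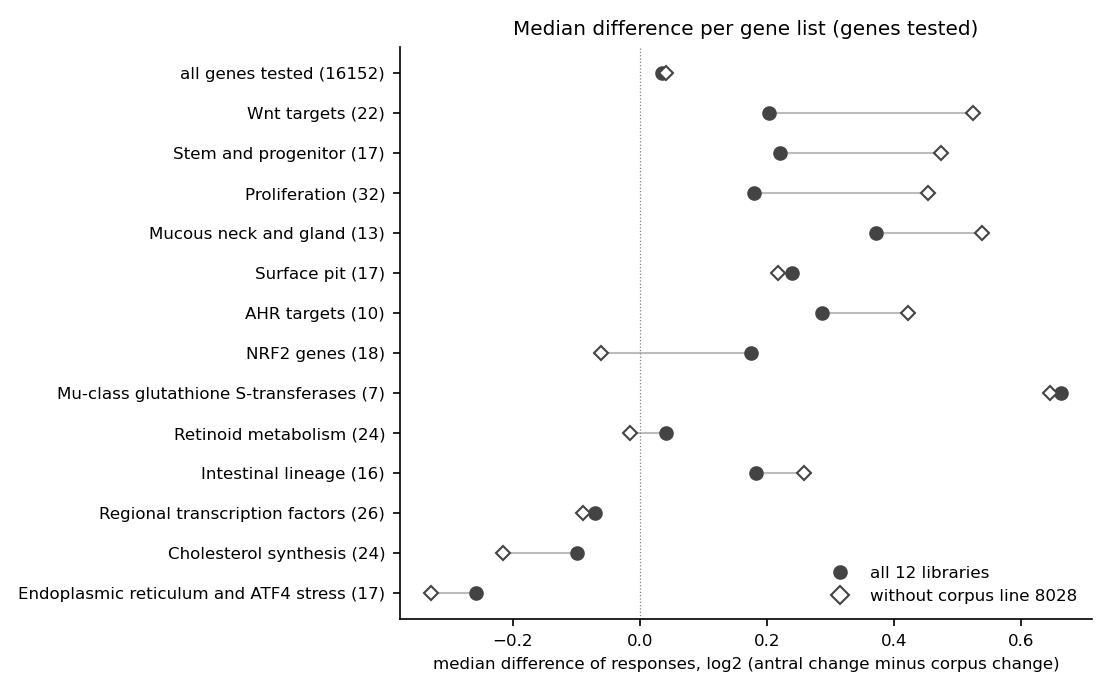
Median difference of responses (log2, antral change minus corpus change) for all genes tested and 13 gene lists, with all 12 libraries (filled) and without the line labelled corpus 8028 (open), and the number of genes tested in brackets. Leaving that line out moves the Wnt targets from 0.20 to 0.52 and the stress genes from -0.26 to -0.33, while the mu-class transferases stay at 0.66 and 0.65 and all genes at 0.03 and 0.04.

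Among the mucous lineages, 17 of 17 pit cell genes rose in corpus and 16 in antrum, and 8 of 13 neck and gland genes fell in each region. None passed the test of the difference with all lines, where DESeq2 called 2 pit and 3 neck or gland genes and limma-voom 0. Of 17 pit cell genes, 4 had an unadjusted p below 0.05 on the higher side and 1 on the lower (median 0.24). Over all genes tested these shares were 4.24% and 2.90%. Muc5ac, the pit mucin, rose by 5.72 in corpus and 6.68 in antrum, a difference of 0.95 (adjusted p = 0.743). Mucl3, a mucin-like protein, went from 33.5, 15.7 and 17.1 CPM to 564, 536 and 459 in corpus and from 7.61, 8.11 and 11.02 to 578, 652 and 579 in antrum, a difference of 1.46 (adjusted p = 0.396). Gkn1, a secreted gastrokine of pit cells, differed by 1.22 (adjusted p = 0.603). Of 13 neck and gland genes, 3 had an unadjusted p below 0.05, all higher: Gkn3 by 0.98 (adjusted p = 0.0884), the trefoil factor Tff2 by 0.68 (0.208) and the water channel Aqp5 by 0.54 (0.225). Tff2 rose in both regions, by 2.27 in corpus and 2.94 in antrum, while Gkn3 and Aqp5 fell in both. Gkn3 fell from 1413, 1426 and 1110.0 CPM to 284, 237 and 275 in corpus and from 1394, 881 and 1408 to 586, 384 and 488 in antrum, so the inhibited groups were apart. Muc6, the gland mucin, fell by 4.02 in corpus and by 3.41 in antrum, a difference of 0.61 (adjusted p = 0.844). Without the line labelled corpus 8028, Gkn3 (1.12, adjusted p = 0.00347), Aqp5 (0.60, 0.0326), the chloride channel Cftr (0.54, 0.0353) and Creb3l4 (0.70, 0.0495) passed. That fit called 0.762% of all genes tested on the higher side.

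Of 26 regional transcription factors 0 passed (1, Irx2, at an unadjusted p below 0.05 on the higher side, 0 by DESeq2 and limma-voom), with a median of -0.07 that was 0.02 under total-count scaling and 0.01 without corpus line 8026. The change of Pdx1 was 0.58 in corpus and 0.54 in antrum, and that of Nkx6-3 was 0.83 and 0.73. The corpus value of Nkx6-3 rests on the line labelled corpus 8028 (48.7 to 82.5 CPM), as the other corpus lines went from 0.296 to 0.247 and from 1.24 to 3.08 CPM. The differences were -0.04 for Pdx1 (adjusted p = 0.961) and -0.09 for Nkx6-3 (0.948). Irx5, at 0 to 0.125 CPM in antrum and 2.13 to 13.7 in corpus, gave no usable difference (95% interval -4.35 to 0.60). Of 24 genes of retinoid metabolism 1 passed (Adh1). Adh7, a retinol-oxidising dehydrogenase, differed by 0.60 (adjusted p = 0.666), and the retinol-binding protein Rbp2 by 2.39 (adjusted p = 0.586), from 0 to 0.166 CPM in vehicle libraries to 2.72, 2.23 and 7.67 in corpus and 7.89, 10.5 and 9.11 in antrum. Rbp2 had 15 counts over the corpus vehicle libraries and 5 over the antral ones, so its difference is imprecise (95% interval 0.66 to 4.12). Aldh1a1, which makes retinoic acid, differed by 0.07 (adjusted p = 0.957). Of 16 intestinal genes 0 passed (1 by DESeq2, 0 by limma-voom), and 2 had an unadjusted p below 0.05, Rbp2 and the antimicrobial lectin Reg3g (1.07, adjusted p = 0.496). At that level 4.24% of all genes tested lay higher.

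In the remaining lists no gene passed with all lines, and of those named here DESeq2 and limma-voom called 0. Among 13 targets and antagonists of bone morphogenetic proteins, which Noggin addresses, 1 had an unadjusted p below 0.05, the target Id3 at 0.53 (adjusted p = 0.474, from -1.48 in corpus and -0.95 in antrum). The target Id2, which is also among the regional factors, passed on the lower side without the line labelled corpus 8028 (-0.42, adjusted p = 0.0353). Of 20 YAP and regenerative genes 3 lay higher and 2 lower at that level, of 23 interferon genes 2 higher, of 16 immediate early genes 1 lower, and of 19 glycolysis and hypoxia genes and 13 Notch genes none. Over all genes tested, 4.24% lay higher and 2.90% lower at that level. The 10 epithelial markers had a median difference of 0.02. The 5 rRNA-like genes had a median of -1.72, with antral vehicle lines 8025 and 8028 high in them, and their part in the other differences was not tested beyond the fits without those lines.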

How the data were processed

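RNA of 12 mouse gastric organoid libraries was analysed. As deposited, the values are RSEM expected counts per gene, already whole numbers. STAR 2.7.8a, RSEM 1.3.3, cutadapt 2.3, FastQC 0.11.8 and the build GRCm38 appear in the submitters' processing notes. Neither the annotation release nor the strand setting is given in the sources used here, so overlapping genes are uncertain. From 55426 rows, 5 transgene rows (2 counts) were dropped. Library totals were 18858022 to 31656696, and 3 counts, the most that a 0 allows, equal 0.0889 to 0.177 CPM.

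Counts were fitted with edgeR 4.0.16 (R 4.3.3): TMM scaling, filterByExpr by group, and a robust quasi-likelihood model with a block for each of the 6 lines and one change per region (4 residual degrees of freedom). The contrast was the antral minus the corpus change, two-sided, adjusted over 16152 genes at 0.05. Changes per line are log2 CPM differences with a prior count of 2. The p-values measure the spread between these lines. Within a region the protocol treats each line both ways, and same-line deviations from group means correlated at 0.400 to 0.729. Across regions the changes of same-numbered lines correlated at 0.0118 to 0.296 and those of differently numbered lines at -0.280 to 0.0791. Numbers were not used as pairs across regions in the main fit. The fit was tested on simulated data that held no line effects, so that run could not test the block on lines.

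Named were, per direction, the 15 largest differences that passed at 5 CPM or more without overlap of line changes, filled to 8 by smallest p, then 24 fixed genes and up to 2 of each list by smallest p. The result of 1 gene that the rule names is not reported here. Other names came from lists, families or the fit without corpus line 8028, after their values were seen. The members, the 30 lists and the alternatives were chosen with earlier results of these data known, and 14 families were added after values were seen. Other scalings (RLE, upper quartile, total counts), filters, blocks and moderation, DESeq2 1.42.0, limma-voom (limma 3.58.1) and fits without single lines were run as alternatives. Positions are from GENCODE mouse release 21, which held 16134 of the 16152 identifiers tested. RefSeq start-site windows were on hand for 10801 tested symbols, all 7 genes that passed among them.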

Additional observations from a re-analysis of the deposited data

Results flagged for a closer look

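For 7 genes the test of the difference between the 2 regional responses itself passed at an adjusted p below 0.05 (edgeR quasi-likelihood test). The antral minus corpus change (log2) was 2.27 for Akr1c14, 1.23 for Gstm3, 0.66 for Gstm2, 1.33 for Adh1, 0.78 for Gstm1, 0.59 for Pdcd4 and 0.52 for Atp2a3. All 3 antral line changes lay above all 3 corpus line changes for each of these 7 genes. The same held for 1301 of all genes tested (8.05%). These line changes come from the same values as the test, so they add no support to it.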

How the results depend on the processing

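With the block on lines, 7 genes differed, all higher. Without a replicate block 1 was called, and with the block also across regions 56 (42 higher, 14 lower). RLE scaling called 4 (4 higher) and upper quartile scaling 3 (3 higher). Total-count scaling called 82 (75 higher, 7 lower) and moved the median of all genes from 0.03 to 0.12. Without a low-count filter 79 were called (64 higher, 15 lower), without robust moderation 2, by DESeq2 57 (47 higher, 10 lower), by limma-voom 5 and at 1 CPM in 3 libraries 7. Leaving out 1 line at a time gave 2 to 174 calls (2 to 123 higher, 0 to 51 lower), the highest without corpus line 8028. The corpus response then ranged from 4264 to 7321 genes and the antral response from 4240 to 7530. Without antral lines 8025 and 8028, the antral line left being assumed to vary like the others, 1 gene differed (Cybrd1), and for the result Antral response 2079 genes passed. Change per line, antral lines all above numbered 1965, and Change per line, antral lines all below 287, under total-count scaling. The cause of these shifts was not tested.

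Akr1c14 was called in 16 of 17 alternatives, Gstm3 in 15, Adh1 in 9, Gstm2 in 8, Gstm1 in 7, Pdcd4 in 6 and Atp2a3 in 6, and the sign was kept in all 17. Over the 85 named genes 12 values turned sign, none of a gene that passed. Pdx1 was 0.051 under total-count scaling. Leaving out 1 line at a time, Pdx1 ranged from -0.099 to 0.0035, Mki67 from -0.0062 to 0.46, Nkx6-3 from -0.34 to 0.024, Tff3 from -0.83 to 0.36, Aldh1a1 from -0.12 to 0.24 and Cyp1a1 from -3.67 to 1.19. Without antral lines 8025 and 8028 Cyp1a1 was 0.84, Gm26917 0.40 and Gm42418 0.44. The cause was not tested. With 4 residual degrees of freedom the median 95% half-width at 5 CPM or more was 0.25 before adjustment, and the smallest difference that passed was 0.52.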
